A study of Mus musculus with 12 samples.

Results

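The enzymes that hydroxylate and oxidise collagen lysines, and the chaperone of procollagen, were examined in ventricular wall RNA of Sdhaf4 mutant mice. The set was chosen by gene name and held the 5 lysyl oxidases (Lox, Loxl1, Loxl2, Loxl3 and Loxl4), the 3 collagen lysyl hydroxylases (Plod1, Plod2 and Plod3) and Serpinh1, and all 9 names were found among the 43686 rows of the count table. Of the 9 genes, 8 passed the test as higher in the mutant hearts and 1, Serpinh1, did not pass in either direction, and 3 of the 8 (Loxl4, Plod1 and Plod3) lost the call when certain single libraries were left out. Lox was 4.51-fold, Loxl3 4.13-fold, Loxl1 2.54-fold and Plod2 2.11-fold higher, and in these genes every mutant library lay above every control library. Of all 17155 rows tested, 25.6% passed as higher, and in 14.9% every mutant library lay above every control library.

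The comparison was between 6 controls (WT) and 6 mutants (KO), both homozygous for a floxed Sdhaf4 allele. The KO mice also carried Ckmm-Cre, in which the muscle creatine kinase promoter drives Cre in heart and skeletal muscle, so the other cells of the ventricle were not targeted, and the WT littermates carried no Cre, so the deletion and the presence of Cre cannot be told apart. The labels give the KO genotype as Sdhaf4-/- and the WT genotype as wild type, the strain as C57BL/6 and the age as 2 months, and the study states its ages differently in different places, once younger than the label and once with an age that matches it. Sdhaf4 encodes an assembly factor for the flavoprotein subunit of succinate dehydrogenase, complex II of the respiratory chain. The labels name no treatment.

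Collagen lysines are modified inside and outside the cell. In the endoplasmic reticulum the lysyl hydroxylases (PLOD enzymes) add a hydroxyl group to lysines of procollagen, with iron, ascorbate and 2-oxoglutarate, which they turn into succinate, and HSP47, the product of Serpinh1, binds the folded triple helix and accompanies it to the Golgi. Outside the cell the copper enzymes of the lysyl oxidase family oxidise lysines and hydroxylysines of collagen and elastin to aldehydes, which condense into the cross-links that give the matrix its tensile strength. PLOD2 acts on the telopeptides, and telopeptide hydroxylysine leads to the more stable pyridinoline type of cross-link that is known from fibrotic tissue. In the heart fibroblasts make most of the fibrillar collagen. Several of these genes, among them Lox, Loxl2, Plod1 and Plod2, are known targets of the hypoxia-inducible factor HIF-1, which binds a short core sequence with the letters CGTG.

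Promoter sequence from RefSeq (GRCm38.p6, 250 bases before to 50 after the gene's start) was at hand for 4 of the 9 genes, Loxl4, Plod1, Plod3 and Serpinh1. The 3 printed here stand for the 3 kinds of protein: a hydroxylase with a small rise, the chaperone without a called change and an oxidase. Each is printed 5′ to 3′ on the strand of the gene, and the capitals mark the HIF core, which is ACGTG in its first form and GCGTG in its second form, on either strand. The windows are chr5:136986769-136987068 on the plus strand for Plod3, chr7:99353190-99353489 on the minus strand for Serpinh1 and chr19:42612757-42613056 on the minus strand for Loxl4.
Plod3: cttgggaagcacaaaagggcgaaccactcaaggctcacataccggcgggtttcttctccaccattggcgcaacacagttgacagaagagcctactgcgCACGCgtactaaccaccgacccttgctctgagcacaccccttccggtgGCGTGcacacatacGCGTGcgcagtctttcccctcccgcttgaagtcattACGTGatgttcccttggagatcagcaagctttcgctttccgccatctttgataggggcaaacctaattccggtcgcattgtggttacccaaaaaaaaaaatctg
Serpinh1: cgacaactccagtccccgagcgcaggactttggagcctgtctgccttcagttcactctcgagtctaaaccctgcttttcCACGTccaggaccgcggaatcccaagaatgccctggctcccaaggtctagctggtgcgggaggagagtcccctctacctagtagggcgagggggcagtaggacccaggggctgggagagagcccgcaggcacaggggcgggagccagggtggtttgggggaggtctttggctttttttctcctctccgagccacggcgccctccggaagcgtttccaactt
Loxl4: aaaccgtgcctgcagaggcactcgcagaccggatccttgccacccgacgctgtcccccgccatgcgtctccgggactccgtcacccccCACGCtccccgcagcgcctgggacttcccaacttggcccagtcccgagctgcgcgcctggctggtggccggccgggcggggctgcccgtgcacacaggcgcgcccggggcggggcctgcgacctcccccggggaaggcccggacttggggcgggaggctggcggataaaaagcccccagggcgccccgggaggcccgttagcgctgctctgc

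Counted from the start (+1), Plod3 held 4 matches, at -152, -104, -90 and -54, whereas Serpinh1 held 1 at -171 and Loxl4 held 1 at -162. The Plod1 window (chr4:147936727-147937026, minus strand) held GCGTG at -20 and at +15. Over all 32817 promoters of this length in RefSeq, the first form was found on either strand in 19.6%, the second in 32.4% and at least 1 of them in 43.8%. The first form is also part of the E-box CACGTG, so the letters do not single out one factor. The matches are a description of the letters in these windows.

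The libraries held 23747014 to 27159228 counts in WT and 26542930 to 31393393 in KO. Counts were scaled to the library totals with edgeR's TMM factors (CPM, the count a gene would have in a library of a common size), 17155 rows with enough counts were tested by its quasi-likelihood test, and p-values were adjusted over all of these rows by the Benjamini-Hochberg method. All p-values below named as adjusted come from this edgeR test unless another is named, and they measure the spread between these samples. The targeted gene was at 14.3 to 30.3 CPM in WT and at 2.25 to 2.73 CPM in KO, a log2 fold change of -3.39 (SE 0.159, adjusted p = 1.95e-10). WT replicate 6 had the lowest Sdhaf4 of the WT libraries and also the highest value of 6 of the 9 genes examined here (Loxl1, Loxl2, Plod1, Plod2, Plod3 and Serpinh1). KO replicate 6 had the lowest KO value in 4 (Loxl1, Loxl2, Loxl3 and Serpinh1), and KO replicate 1 the highest in 5. Genotype moved a large part of the transcriptome: 25.6% of the rows tested were called higher and 25.5% lower at an adjusted p of 0.05, and 5.36% were higher at the stricter threshold, which asks for 0.005 and for a log2 fold change over 1. In 14.9% of the rows every KO library exceeded every WT library.

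Against this background, 8 of the 9 genes were called higher and 0 lower at the first threshold, 4 of 9 passed the stricter one, and in the same 4 (Lox, Loxl1, Loxl3 and Plod2) the groups did not overlap. The first count was 5 without WT replicate 1, 5 without KO replicate 1 and 6 when counts were scaled by library size only. The median log2 fold change of the 9 was 1.06 and that of all rows tested was 0.002. Because the RNA came from whole ventricular wall, a change in the number of cells of one type and a change in RNA per cell cannot be told apart for any of these genes. Markers of fibroblasts moved in the same libraries: 7 of 10 were called higher and 1 lower, their summed level was 1486 to 1707 CPM in WT and 2030 to 2837 CPM in KO, and no marker was at 0. A large part of the sum came from Dcn, which was at 751.8 to 932.5 CPM in WT and at 1053 to 1496 CPM in KO. KO replicates 3 and 6 had the lowest fibroblast sums of the KO libraries (2106 and 2030 CPM). The part of fibroblast number in the results was not tested.

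**Figure D1:**
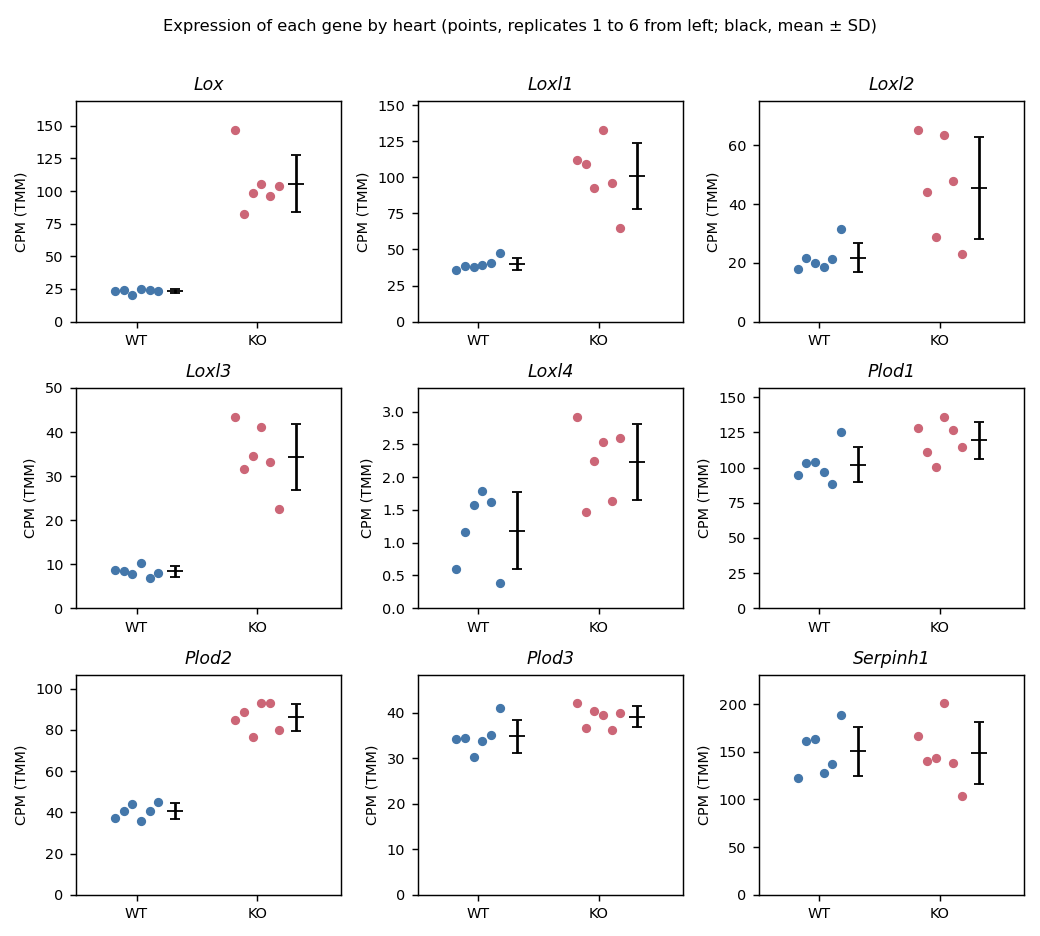
Level of each gene (CPM, linear axes starting at 0) in the 6 WT and 6 KO libraries; points are libraries and the black marks show the mean ± SD. The WT and KO points are apart for Lox, Loxl1, Loxl3 and Plod2, touch or overlap for Loxl2, Loxl4, Plod1 and Plod3, and the KO range encloses the WT range for Serpinh1.

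All 5 lysyl oxidases were called higher in KO. Lox, the founding member of the family, which cross-links collagen and elastin, lies on chromosome 18 (53381212 to 53398983, minus strand, on the C57BL/6NJ assembly of the deposited table). Its level was 20.1 to 24.7 CPM in WT (median 23.9) and 82.1 to 146.7 CPM in KO (median 101.1). No KO library came near the WT range, and the spread lay almost wholly within KO, where replicate 1 stood above the other 5 libraries (82.1 to 105.6 CPM). The log2 fold change was 2.17 (SE 0.116, adjusted p = 2.49e-09), and it stayed between 2.06 and 2.24 when any one library was left out. Lox ranked 212 by log2 fold change among the 17155 rows tested.

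Loxl3, a member with scavenger receptor domains that is needed for palate and spine development, is located on chromosome 6 (86316328 to 86335612, plus strand). It was at 6.76 to 10.3 CPM in WT (median 8.26) and at 22.5 to 43.5 CPM in KO (median 33.8). The rise was close to that of Lox from a lower level (log2 fold change 2.05, SE 0.144, adjusted p = 2.72e-08), and KO replicate 6 was the library nearest to WT. The span of Loxl3 overlaps that of Htra2, and it is not known whether the counting used strand, so reads of the 2 genes may not be fully separated. Loxl1, which is tied to elastic fibre maintenance, lies on chromosome 9 (59185515 to 59216805, minus strand). Its values were 35.6 to 47.8 CPM in WT (median 38.9) and 64.7 to 132.9 CPM in KO (median 102.6). The groups were apart, with WT replicate 6 the highest control and KO replicate 6 the lowest mutant, and the log2 fold change was 1.34 (SE 0.141, adjusted p = 4.13e-06).

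Loxl2, which oxidises collagen IV of basement membranes as well as fibrillar collagen, lies on chromosome 14 (67090148 to 67183974, plus strand). It was at 17.9 to 31.5 CPM in WT (median 20.5) and at 22.9 to 65.2 CPM in KO (median 46.0). The groups overlapped through WT replicate 6 (31.5 CPM) and through KO replicates 3 and 6 (28.9 and 22.9 CPM), and 4 of the 6 KO libraries exceeded every WT library. Its log2 fold change of 1.06 had the second largest error of the family (SE 0.263, adjusted p = 0.00544). Loxl4 is on chromosome 19 (43006192 to 43031644, minus strand) and was the scarcest of the 9, with 10 to 91 counts per library. It was at 0.382 to 1.79 CPM in WT (median 1.37) and at 1.46 to 2.92 CPM in KO (median 2.40), and the groups overlapped. The log2 fold change was 0.91 (SE 0.316, adjusted p = 0.0227). The call was lost without WT replicate 1 (log2 fold change 0.77, adjusted p = 0.0521) and without KO replicate 1 (0.82, adjusted p = 0.0525).

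The lysyl hydroxylases differed in the size of their rise. Plod2, the telopeptide hydroxylase, lies on chromosome 9 (96225705 to 96296962, plus strand) and was at 36.0 to 45.3 CPM in WT (median 40.8) and at 76.6 to 92.9 CPM in KO (median 86.8). The groups were far apart and each was narrow, and the adjusted p was the smallest of the set (log2 fold change 1.08, SE 0.067, adjusted p = 1.47e-09). The spans of Plod2 and of Loxl2 each overlap a row without a gene name. Plod1, which hydroxylates lysines of the triple helix, lies on chromosome 4 (157114956 to 157141936, minus strand). Its values were 88.4 to 125.0 CPM in WT (median 100.1) and 100.3 to 136.2 CPM in KO (median 120.8), and 3 KO libraries exceeded every WT library. The log2 fold change was 0.23 (95% interval 0.05 to 0.41, adjusted p = 0.033), which was called in 4 of the 12 analyses that left out 1 library and lost (adjusted p = 0.0515 to 0.0876) without any one of WT replicates 1 to 5 or KO replicates 1, 4 and 5. Plod3, which also glycosylates hydroxylysine, is on chromosome 5 (146967600 to 146977229, plus strand). It was at 30.2 to 41.2 CPM in WT (median 34.3) and at 36.2 to 42.1 CPM in KO (median 39.8), and 1 KO library exceeded every WT library. Its log2 fold change of 0.17 (95% interval 0.03 to 0.31, adjusted p = 0.0435) was called in 3 of those 12 analyses, without WT replicate 6, KO replicate 2 or KO replicate 5, and in the others the adjusted p was 0.0636 to 0.126. The span of Plod3 overlaps that of Znhit1. The rises of Plod1 and Plod3 therefore stood at the edge of the test.

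Serpinh1, on chromosome 7 (106048530 to 106056288, minus strand), was the most abundant of the 9 by CPM and had no called change. It was at 122.1 to 188.9 CPM in WT (median 149.4) and at 103.6 to 200.8 CPM in KO (median 142.1). The KO range enclosed the WT range, and 2 of the 6 KO libraries exceeded the WT median. The log2 fold change was -0.01 (SE 0.148, adjusted p = 0.952), and its 95% interval of -0.33 to 0.31 corresponds to 0.793 to 1.24 times the WT level. It was called in none of the 12 analyses that left out 1 library and under none of the 11 other settings of the processing.

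**Figure D2:**
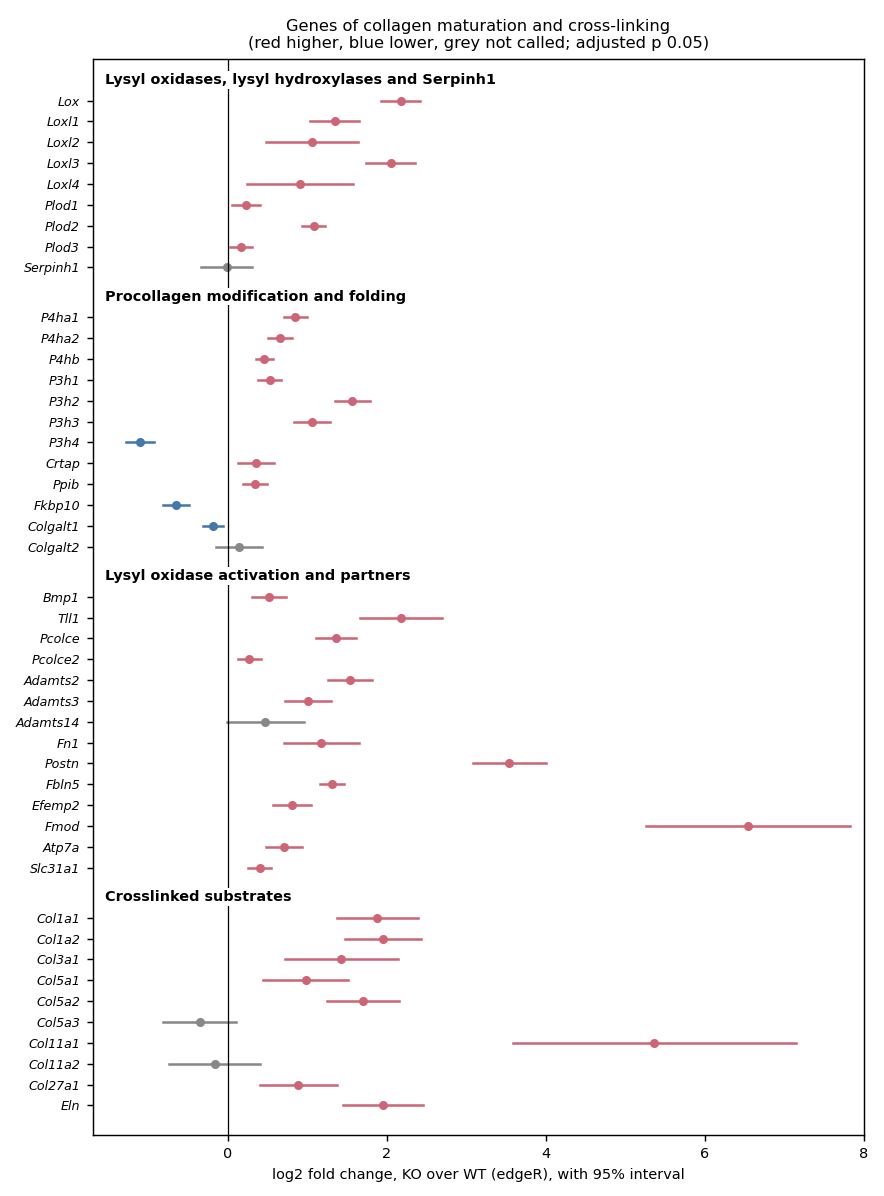
Log2 fold change of KO over WT from edgeR with its 95% interval for the 9 genes and for the listed genes of procollagen modification, lysyl oxidase activation and the cross-linked substrates; red points were called higher, blue points lower and grey points neither at an adjusted p of 0.05. Serpinh1 lies on zero between the rises of Lox (2.17) and Plod2 (1.08) and the falls of P3h4 (-1.11) and Fkbp10 (-0.65).

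The make-up of both enzyme families differed between the genotypes. By deposited FPKM, which divides by gene length and so allows levels of different genes to be set side by side, Loxl1 made up 42.4% ± 1.55 (SD, n = 6) of the summed lysyl oxidase level in WT and 34.6% ± 3.97 in KO. The share of Lox was 20.6% ± 1.74 in WT and 30.3% ± 5.71 in KO, and that of Loxl3 was 16.4% ± 2.52 and 21.7% ± 1.52. Loxl2 had the lower share in KO (18.4% ± 2.72 in WT and 12.1% ± 2.72 in KO), although its own level was higher. The summed FPKM of the 5 genes was 25.7 to 33.2 in WT and 62.8 to 112.9 in KO.

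Within the lysyl hydroxylases Plod1 was the largest in both genotypes, with 60.5% ± 1.83 (SD, n = 6) of the summed FPKM in WT and 52.4% ± 1.83 in KO. Plod2 was at 20.3% ± 1.37 in WT and at 31.6% ± 1.42 in KO, with no overlap between the groups (18.8% to 22.0% and 29.9% to 33.8%). Plod3 was at 19.2% ± 1.51 in WT and at 16.0% ± 1.63 in KO. The gene lengths behind the deposited FPKM differ from the length column of the same table for 7 of the 9 genes, and with that column the Plod2 share was 23.8% in WT and 36.3% in KO, while the Lox share was 22.2% and 33.5%. The Loxl3 share was then 8.66% in WT and 11.7% in KO, and that of Loxl1 was 50.5% and 42.3%. The direction of each share was the same with either length. The summed FPKM of the 3 genes was 90.3 to 123.1 in WT and 115.7 to 153.9 in KO.

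**Figure D3:**
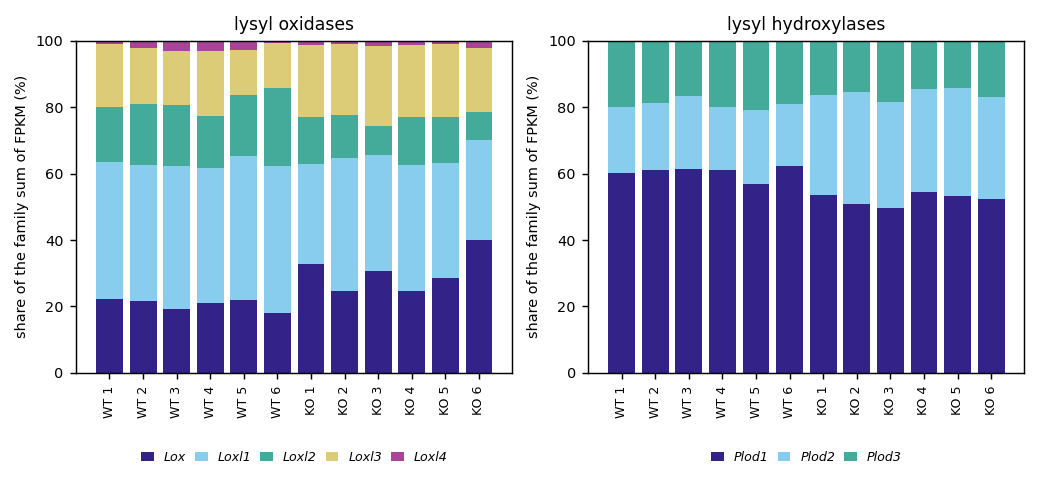
Share of each gene in the summed FPKM of its family (stacked bars, percent, 0 to 100) for every library, lysyl oxidases and lysyl hydroxylases separately, by genotype. Plod2 takes 18.8% to 22.0% in WT and 29.9% to 33.8% in KO, and Lox takes 17.9% to 22.3% in WT and 24.8% to 40.0% in KO.

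In order of FPKM, the WT hearts had Serpinh1 (70.8 ± 13.1, SD, n = 6), Plod1 (60.8 ± 8.65), Plod2 (20.3 ± 2.04), Plod3 (19.2 ± 2.27), Loxl1 (11.95 ± 1.44), Lox (5.79 ± 0.452), Loxl2 (5.22 ± 1.29), Loxl3 (4.60 ± 0.654) and Loxl4 (0.596 ± 0.287). The ranges overlapped between Serpinh1 and Plod1, between Plod2 and Plod3, and among Lox, Loxl2 and Loxl3, so the order inside these groups was not set by the data. In KO, Lox (26.2 ± 5.70) lay between Loxl1 (30.5 ± 7.50) and Plod3 (21.6 ± 1.29), and Plod2 (43.0 ± 4.35) lay well above Plod3, with Plod1 at 71.4 ± 9.54, Serpinh1 at 70.4 ± 16.8, Loxl3 at 19.1 ± 4.46, Loxl2 at 11.0 ± 4.41 and Loxl4 at 1.13 ± 0.296. In KO the range of each gene overlapped that of its neighbour in the order, except between Loxl2 and Loxl4. The order depends on the length used. Per kilobase of the table's length column the WT means were 70.8 CPM for Serpinh1, 24.95 for Plod1, 11.96 for Loxl1, 11.1 for Plod2, 10.6 for Plod3, 5.24 for Lox, 4.10 for Loxl2, 2.03 for Loxl3 and 0.317 for Loxl4. Loxl1 then stood above Plod2 and Plod3, and Serpinh1 far above Plod1. In KO, on the same scale, Loxl1 (30.3 CPM) and Plod1 (29.2) came next in order after Serpinh1 (70.2), Lox (23.6) and Plod2 (23.5) were level, and Plod3 was at 11.9.

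Ratios of 2 genes within a library do not depend on the scaling between libraries, and 8 were compared by a two-sided exact permutation test over the 12 libraries, whose smallest possible p is 0.00216. Plod2 over Plod1 was 0.303 to 0.385 in WT and 0.556 to 0.668 in KO, and all 6 KO libraries were above the WT range (log2 difference 0.85, SE 0.067, exact permutation p = 0.00216, adjusted over the 8 ratios 0.00432). Plod2 over Plod3 rose likewise from 1.05 to 1.98 (geometric means, log2 difference 0.91, SE 0.099, exact permutation p = 0.00216, adjusted 0.00432). Among the oxidases, Lox over Loxl1 was 0.404 to 0.541 in WT and 0.621 to 1.33 in KO (log2 difference 0.84, SE 0.184, exact permutation p = 0.00216, adjusted 0.00432). Loxl2 over Loxl1 differed by -0.33 on the log2 scale (SE 0.152, exact permutation p = 0.0606, adjusted 0.0693), with overlapping groups, and without KO replicate 1 the difference was -0.42 (exact permutation p = 0.0130).

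Collagen I is the main fibrillar collagen of the ventricle and the client of all 3 groups of proteins, and its alpha 1 chain served as the reference for 3 of the ratios. Col1a1 was at 75.6 to 113.4 CPM in WT and at 185.3 to 484.3 CPM in KO (log2 fold change 1.88, SE 0.233, adjusted p = 3.91e-05). The level of each ratio depends on the gene lengths behind the FPKM, and for Col1a1 this length was 1777 bases against 5913 in the length column. The differences of the ratios between genotypes do not depend on it. Serpinh1 over Col1a1 was 1.12 to 1.45 in WT and 0.297 to 0.533 in KO, a log2 difference of -1.83 (SE 0.145, exact permutation p = 0.00216, adjusted 0.00432) with all 6 KO libraries under the WT range. Plod2 over Col1a1 was also lower in KO (log2 difference -0.73, SE 0.201, exact permutation p = 0.00866, adjusted 0.0139), though the groups overlapped. Lox over Col1a1 was 0.0906 to 0.144 in WT and 0.096 to 0.247 in KO and did not pass (log2 difference 0.35, SE 0.238, exact permutation p = 0.195). The ratio to Col1a1 was thus lower in KO for Plod2 and Serpinh1, and for Lox no difference was detectable. Serpinh1 itself had no called change and Plod2 itself was higher, so both lower ratios reflect the larger rise of Col1a1. Serpinh1 over P4hb, a resident of the endoplasmic reticulum that forms the beta subunit of prolyl 4-hydroxylase, differed by -0.48 on the log2 scale (SE 0.178, exact permutation p = 0.0195, adjusted 0.026). P4hb itself was higher in KO (log2 fold change 0.46).

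**Figure D4:**
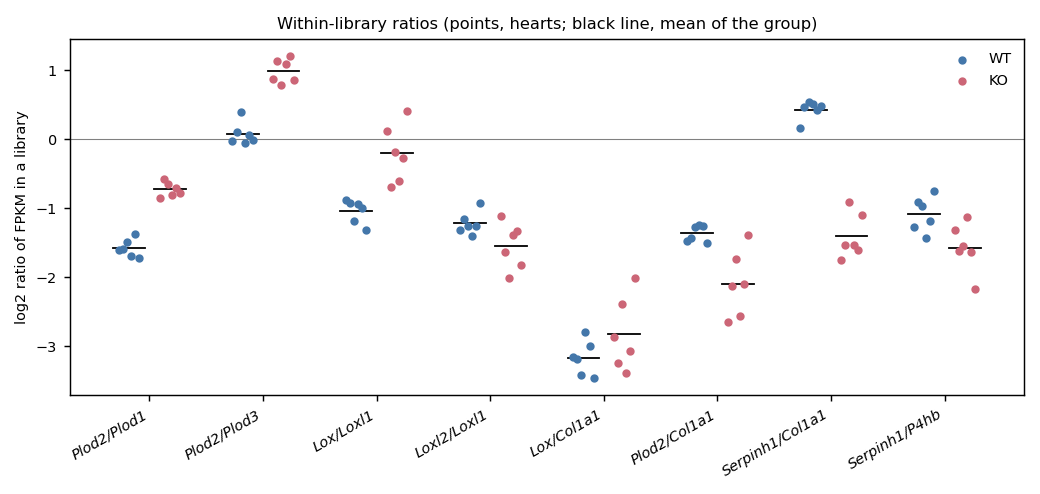
Log2 ratio of the FPKM of 2 genes in each of the 6 WT and 6 KO libraries for the 8 ratios compared, with a black line at each group's mean. The groups are apart for Plod2/Plod1, Plod2/Plod3, Lox/Loxl1 and Serpinh1/Col1a1 and overlap in the other 4.

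**Figure D5:**
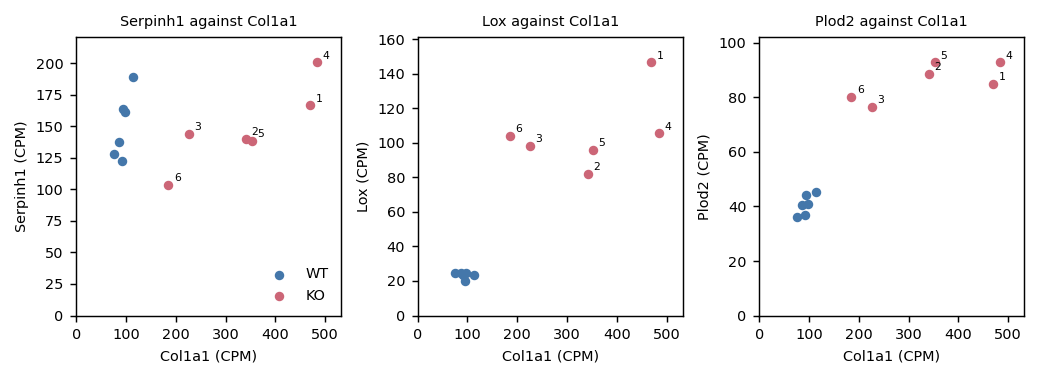
CPM of Lox, Plod2 and Serpinh1 against CPM of Col1a1 (linear axes) with 1 point per library, coloured by genotype and with the replicate number beside each KO point. Col1a1 spreads from 185.3 to 484.3 CPM among the KO libraries, while Plod2 stays between 76.6 and 92.9 CPM.

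Within genotypes the 9 genes did not vary as a block. After the mean of each genotype was removed, Pearson's r over the 12 libraries was above 0.5 in 14 of the 36 pairs and negative in 9. The closest pair was Loxl1 with Loxl2 (r = 0.901), followed by Loxl1 with Serpinh1 (r = 0.858) and Loxl2 with Serpinh1 (r = 0.829). Plod1 and Plod2 went together (r = 0.723), but Lox went with neither Loxl1 (r = 0.136) nor Plod2 (r = -0.224). Serpinh1 thus varied with Loxl1 and Loxl2 among libraries of the same genotype although no difference in its mean between genotypes was detected. These are descriptions over libraries that share their depth and tissue make-up, without a test.

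The genes of the enzymes that work beside the lysyl hydroxylases on procollagen held both rises and falls. Of 14 listed genes of procollagen modification and folding, 12 were tested. Of these, 8 were called higher and 3 lower, with a median log2 fold change of 0.41. Over all rows tested, 25.6% were called higher, and the count of falls was near the share of all rows called lower (25.5%). The genes of the prolyl 4-hydroxylase subunits, which stabilise the triple helix, were all higher among those tested: P4ha1 was at 38.5 ± 3.70 CPM (SD, n = 6) in WT and 69.5 ± 5.54 in KO (log2 fold change 0.85, adjusted p = 2.9e-08), P4ha2 rose by 0.66 (adjusted p = 1.17e-06) and P4hb by 0.46 (adjusted p = 7.96e-07). P4ha3 was not tested because of low counts, at 0 to 0.202 CPM in WT and 0.300 to 1.07 CPM in KO. P3h2, a prolyl 3-hydroxylase of basement membrane collagen, had the largest rise (8.96 ± 1.13 and 26.6 ± 3.82 CPM, log2 fold change 1.57, adjusted p = 3.03e-09).

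The genes of the partners of PLOD1 and PLOD2 went in both directions. P3h3 and P3h4 form a complex with PLOD1, and the former was higher in KO (15.0 ± 1.60 CPM in WT and 31.3 ± 5.20 in KO, SD, n = 6, log2 fold change 1.06, adjusted p = 5.67e-07) while the latter was lower (53.7 ± 5.06 and 25.0 ± 3.28 CPM, log2 fold change -1.11, adjusted p = 1.79e-08). For both genes the 2 genotypes did not overlap. Fkbp10 encodes FKBP65, which acts with PLOD2 in telopeptide hydroxylation, and it was at 38.9 to 45.9 CPM in WT and at 21.9 to 31.6 CPM in KO (log2 fold change -0.65, SE 0.080, adjusted p = 3.4e-06). Its span overlaps that of Nt5c3b. On chromosome 11, P3h4 (106372475 to 106378855, minus strand) and Fkbp10 (106379715 to 106392793, plus strand) lie side by side. Whether their falls are separate was not tested. The third fall was that of Colgalt1, a galactosyltransferase that acts on hydroxylysine (log2 fold change -0.19, adjusted p = 0.0134), whose span overlaps that of Unc13a. The genes of the prolyl 3-hydroxylation complex, P3h1, Crtap and Ppib, rose by 0.53, 0.36 and 0.35 on the log2 scale (adjusted p = 5.89e-06, 0.00968 and 6.41e-04).

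The genes of proteins that activate or position lysyl oxidases were nearly all higher in RNA. Of 15 listed genes 14 were tested, 13 were called higher and 0 lower, and the median log2 fold change was 1.09. Over all rows tested, 25.6% were called higher. Bmp1, the protease that releases active LOX from its precursor and removes the C-propeptide of procollagen, rose from 40.5 ± 3.07 to 58.0 ± 10.5 CPM (SD, n = 6, log2 fold change 0.52, adjusted p = 5.12e-04). Its enhancer Pcolce rose too (34.1 ± 3.08 and 87.7 ± 17.3 CPM, log2 fold change 1.37, adjusted p = 3.44e-07) as did the related Pcolce2 (log2 fold change 0.27, adjusted p = 0.00267). The genes of the matrix proteins that hold BMP1 and LOX together were higher too, Fn1 by 1.18 (adjusted p = 6.87e-04) and Postn by 3.54 (44.3 ± 6.88 and 515.1 ± 150.2 CPM, adjusted p = 5.57e-08). Fbln5, which binds LOXL1 on elastic fibres, was at 43.4 to 50.9 CPM in WT and at 108.1 to 148.0 CPM in KO (log2 fold change 1.31, adjusted p = 3.09e-10). Fmod, a proteoglycan that steers LOX to its sites on collagen, had the largest rise of the list, from 0.315 to 2.06 CPM in WT to 24.0 to 129.5 CPM in KO (log2 fold change 6.54, SE 0.580, adjusted p = 3.36e-06). Fmod, like another gene of this list, had enough counts to be tested only through the KO libraries. The 13 called higher include both. Atp7a, the pump that loads copper onto the secreted enzymes, rose by 0.71 (adjusted p = 3.33e-05).

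The genes of the substrates rose as well. Of 12 listed fibrillar collagens and elastin 10 were tested, 8 were called higher and 0 lower, with a median log2 fold change of 1.56. The share of all rows tested that were called higher was 25.6%. Besides Col1a1, Col1a2 rose by 1.96 (adjusted p = 1.37e-05), Col3a1 by 1.43 (adjusted p = 0.00328) and elastin, Eln, by 1.96 (174.5 ± 46.1 and 677.2 ± 199.2 CPM, SD, n = 6, adjusted p = 2.31e-05). Col11a1, a minor fibrillar collagen best known from cartilage, was at 0 to 0.243 CPM in WT and at 0.497 to 8.10 CPM in KO. It had enough counts to be tested only through the KO libraries, and the 8 called higher include it. The sum over the listed substrates was 719.1 to 1213 CPM in WT and 1565 to 4057 CPM in KO.

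Markers of the other cells of the ventricle were examined beside those of fibroblasts. Over all rows tested, 25.6% were called higher and 25.5% lower, and the counts for pericyte, smooth muscle and macrophage markers were near these shares. Endothelial markers were called higher in 6 of 8 and lower in 0 (sum 1432 to 1623 CPM in WT and 1696 to 2049 in KO), pericyte markers in 2 and 1 of 6 (1486 to 1684 and 1445 to 1894 CPM), smooth muscle markers in 1 and 2 of 6 (278.5 to 439.5 and 284.0 to 400.5 CPM), and macrophage markers in 1 and 2 of 7 (202.1 to 283.0 and 203.4 to 325.0 CPM). Cardiomyocyte markers, which carried 45380 to 50860 CPM in WT and 50720 to 62460 CPM in KO, were called higher in 2 and lower in 4 of 9, and none was at 0. The higher sum in KO rested on Nppa, a natriuretic peptide gene known to be induced by cardiac stress, which was at 155.8 to 408.2 CPM in WT and at 7399 to 15650 CPM in KO. Without Nppa, a choice made after its values were seen, the other 8 markers summed to 45210 to 50460 CPM in WT (median 48880) and to 39050 to 55060 CPM in KO (median 42690). Of 8 markers of cartilage and tendon cells only 3 were expressed enough to be tested, and all 3 were higher (sum over the 8 of 6.88 to 9.73 CPM in WT and 16.95 to 33.0 CPM in KO). Among these 3, Tnmd was at 0 to 0.243 CPM in WT and at 0.397 to 6.56 CPM in KO. It had enough counts to be tested only through the KO libraries. Lymphocyte markers summed to 2.63 to 4.97 CPM in WT and 2.88 to 7.05 CPM in KO, with 1 of 4 called higher, mesothelial markers to 4.81 to 12.2 and 5.15 to 10.6 CPM, with 0 of 1 called, and adipocyte markers to at most 0.688 CPM. The part of these cells in the changes of the cross-linking genes was not tested.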

How the data were processed

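Messenger RNA of the ventricular wall was isolated on poly-T beads and sequenced in 6 WT and 6 KO libraries. The authors deposited 1 table with the raw read counts per gene, made with HTSeq. Beside them the authors deposited FPKM, which scale the counts by gene length and library total, and a gene length column. Their processing notes name HISAT2 2.0.5 and mm10, but the identifiers and positions are those of the C57BL/6NJ assembly: all 9 genes lie on the chromosome RefSeq gives for GRCm38.p6, and 0 within 100000 bases of that start. The authors' group means, fold changes and p-values were not used. Strand was not given in the sources used here. Besides the overlaps given above, the spans of other named genes overlap further rows. Among them, Pcolce overlaps Fbxo24, Ppib overlaps Snx22 and P3h2 overlaps rows without a gene name.

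The counts were fitted with edgeR 4.0.16 under R 4.3.3 (filterByExpr, TMM, robust quasi-likelihood test, genotype only). Of 43686 rows 17155 were tested, and unannotated loci stayed in the totals. DESeq2 1.42.0, limma 3.58.1, other scalings, filters and pseudocounts, a replicate block and the omission of each library were alternatives. Omitting WT replicate 6 and KO replicate 3 together was added after the data had been seen. The replicate numbers were not taken as pairs (correlation of same-numbered deviations -0.162 to 0.024). Replicates of a genotype differed by 7.41 to 52.6 in chi-square per degree of freedom, and each was counted once. The method was tested on simulated data.

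The 9 genes and the lists were chosen with earlier results of these data known. Named are the 9 genes, Sdhaf4, a fixed part of each pathway list, in each such list the 2 called genes with the largest rise and the 2 with the largest fall, and for each of the 9 the 2 genes that varied most like it. One gene named by this rule is not reported here. Cell type lists were described by counts. Labels and methods do not say which samples, if any, share a litter, so p-values measure the spread between these samples.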

Additional observations from a re-analysis of the deposited data

Results flagged for a closer look

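In 86 sets of 6 values each, 9 values, in 6 libraries, lay far from the other 5 of their genotype by Dixon's criterion, where chance gives about 4.3. Lox was at 20.1 CPM in WT replicate 3 (23.3 to 24.7 in the others) and at 146.7 CPM in KO replicate 1 (82.1 to 105.6). Loxl2 was at 31.5 CPM in WT replicate 6 (17.9 to 21.5), and Fn1 was at 115.0 CPM in the same library (76.6 to 86.8). Sdhaf4 was at 2.73 CPM in KO replicate 1 (2.25 to 2.42). P4ha3 was at 0.202 CPM in WT replicate 5 (0 to 0.0394), a value of few counts. Fbln5 was at 43.4 CPM in WT replicate 2 (48.4 to 50.9). The log2 ratio of Plod2 to Plod3 was 0.40 in WT replicate 3 (-0.06 to 0.10), and that of Serpinh1 to Col1a1 was 0.16 in WT replicate 1 (0.42 to 0.53).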

How the results depend on the processing

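No called result reversed its direction in the 1827 recomputed values, of which 1762 kept their side of the threshold or, for counts of genes, stayed within 1.5 times. Serpinh1, never called, lay on both sides of zero (log2 fold change -0.115 to 0.069 with 1 library left out). The number of the 9 genes called higher was 6 to 8 under the other scalings, filters, tests and pseudocounts and 5 to 8 when 1 library was left out, with 5 without WT replicate 1 and 5 without KO replicate 1, where Loxl4, Plod1 and Plod3 were lost. Under the stricter threshold 4 or 5 were called. With WT replicate 6 and KO replicate 3 both left out, 8 were called higher. The Loxl2 to Loxl1 difference ranged from -0.42 to -0.24 (log2) with 1 library left out and passed only without KO replicate 1. The labels do not say whether the replicate numbers mark pairs, and they were not taken as such. With a replicate block 6 of the 9 genes were called higher. In paired sign flips Plod2 to Col1a1 (-0.73, exact p = 0.0625) and Serpinh1 to P4hb (-0.48, exact p = 0.0938) no longer passed. The cause was not tested. Depth limits Loxl4 (10 to 91 counts per library) and P4ha3.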

Other observations

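For each of the 9 genes, the 2 annotated genes that varied most like it over the 12 libraries, with the mean of each genotype removed, were picked from 10044 genes of at least 5 CPM by Pearson's r, given here as a description. As the highest of so many values over 12 libraries, such r can be high without any link between the genes. Loxl2 went with Col6a1 (r = 0.973), a chain of the microfibrillar collagen VI, and with Itgb1 (r = 0.972), the beta 1 integrin that serves collagen receptors. Loxl1 went with Ywhaq (r = 0.957) and with Mmp23 (r = 0.956), a membrane-bound metalloprotease. Serpinh1 went with Jam2 (r = 0.949), and Plod1 with Prelid1 (r = 0.964) and Arhgef19 (r = 0.927).

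Lox was nearest to Mt1 (r = 0.873), a metallothionein that binds copper and zinc, and to Fbxo18 (r = 0.851), and r with Mt1 was 0.990 within KO and 0.431 within WT. By rank correlation other genes came first for Lox, Alg13 (Spearman's rho 0.895) and Crtc3 (0.881). Without KO replicate 1, the library with the highest Lox, r was 0.722 for Mt1 and 0.721 for Fbxo18. Mt1 itself was lower in KO (log2 fold change -1.13, edgeR adjusted p = 5.79e-06), where Lox was higher. Loxl3 went with Parp9 (r = 0.914) and Rpn1 (r = 0.908), Plod2 with Grb10 (r = 0.934) and Rasgrp2 (r = 0.918), and Plod3 with Colq (r = 0.865) and Arhgap42 (r = 0.861). For Loxl4, which had few counts, the nearest were the ribosomal protein genes Rps9 (r = 0.915) and Rpl6 (r = 0.846).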
